A study of Homo sapiens with 3 samples.

Results

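DNA methylation was examined at the start sites of 8 genes that encode secreted Wnt antagonists: SFRP1, SFRP2, SFRP4, SFRP5, WIF1, DKK1, DKK2 and DKK3. Every CpG within 1.5 kb of the start site of one of these genes was taken, the reads of both strands were summed, and a CpG was compared where each of the 3 libraries held at least 10 reads. This gave 438 CpGs of the 2238764 compared in the whole series. The same windows held 744 CpGs with a read in any library, and those left out by the minimum lay mostly close to the start sites of SFRP1, SFRP2, SFRP5 and WIF1. The rule names the genes and uses no methylation value, but the set was chosen with earlier results of these data known.

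The cells were Hep3B, an established human hepatocellular carcinoma line. One library came from the parental cells, and the other 2 came from SOX4-knockout lines of Hep3B, labelled Hep3B SOX4 KO #1 and #2. SOX4 is an HMG-box transcription factor. The knockout lines had been made earlier by CRISPR/Cas9 and were grown with puromycin. Whether each line is 1 clone is not given in the sources used here, and the edit at SOX4 was not checked here. Genomic DNA was captured with EPIC probes, bisulfite-treated and sequenced, so that the share of reads keeping a C at a CpG is its methylation level. Only DNA methylation was analysed, and the levels of the 8 transcripts were not analysed here. The parental cells, KO #1 and KO #2 (the order of all triplets of values below) gave 104702738, 96987706 and 133170621 CpG reads, and a median depth at the 438 CpGs of 30, 28 and 36 reads. Nearly all reads of the 438 CpGs lay on 1 strand, the reverse one (98.7%, 98.3% and 98.6%), so at most of these CpGs the level could not be checked on the other strand.

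Wnt proteins signal by joining a Frizzled receptor and an LRP5 or LRP6 co-receptor at the cell surface, which stabilises β-catenin. The secreted frizzled-related proteins (SFRP) carry a cysteine-rich domain like that of Frizzled and can bind Wnt ligands outside the cell, and WIF1 binds Wnt ligands through a domain of its own. DKK1 and DKK2 act on the LRP5 and LRP6 co-receptors instead, while DKK3 is the divergent member of the Dickkopf family. The start-site CpG islands of several of these genes are known to be methylated in tumours, hepatocellular carcinoma among them, which is why their levels in Hep3B are of interest.

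The sequences just upstream of 4 start sites show how densely CpGs lie there. They are shown because a promoter entry could be placed for these 4 genes. They run from a nearly unmethylated promoter (DKK1, SFRP4) to a largely methylated one (SFRP2), with SFRP5 between. The sequences are from RefSeq on GRCh38.p14, 5′ to 3′ along the gene, and capitals mark CpGs that had a read in at least 1 library. Each was placed on the GRCh37 positions of the data by the spacing of its CpGs. SFRP2 lies at chr4:153789084-153789333 on the reverse strand, SFRP4 at chr7:37916924-37917067 on the reverse strand, SFRP5 at chr10:97772000-97772249 on the reverse strand and DKK1 at chr10:52314031-52314280 on the forward strand.
SFRP2: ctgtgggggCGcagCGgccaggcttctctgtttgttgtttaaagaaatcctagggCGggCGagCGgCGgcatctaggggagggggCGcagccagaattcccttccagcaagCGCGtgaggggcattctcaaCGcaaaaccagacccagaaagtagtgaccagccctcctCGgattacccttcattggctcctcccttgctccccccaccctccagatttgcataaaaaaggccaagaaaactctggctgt
SFRP4: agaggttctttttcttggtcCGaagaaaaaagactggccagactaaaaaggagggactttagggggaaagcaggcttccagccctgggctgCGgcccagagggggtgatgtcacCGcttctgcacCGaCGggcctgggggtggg
SFRP5: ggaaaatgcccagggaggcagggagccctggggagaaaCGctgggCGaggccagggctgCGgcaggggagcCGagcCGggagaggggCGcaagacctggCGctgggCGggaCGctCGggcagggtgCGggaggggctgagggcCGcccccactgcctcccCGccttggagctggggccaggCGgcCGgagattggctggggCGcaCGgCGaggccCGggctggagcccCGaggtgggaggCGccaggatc
DKK1: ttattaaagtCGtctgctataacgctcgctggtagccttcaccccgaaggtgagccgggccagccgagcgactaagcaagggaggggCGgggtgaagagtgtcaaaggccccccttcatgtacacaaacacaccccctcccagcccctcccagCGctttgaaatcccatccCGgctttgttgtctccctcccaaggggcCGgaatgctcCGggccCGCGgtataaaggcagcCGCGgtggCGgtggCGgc
The 300-base promoter entries they come from hold 15 CpGs at SFRP2, 23 at SFRP4, 28 at SFRP5 and 20 at DKK1, beside a median of 14 over all 35116 RefSeq promoters, 48.9% of which hold at least 15. The pooled reads of the capital CpGs of SFRP2 were methylated at 117 of 176 (66.5%) in the parental cells, 42 of 51 (82.4%) in KO #1 and 96 of 137 (70.1%) in KO #2. In the SFRP5 sequence, with 21 capital CpGs, the pooled share was 11 of 84 (13.1%), 7 of 59 (11.9%) and 25 of 142 (17.6%) in the same order. These 2 stretches were thinly read, and 0 of their CpGs reached 10 reads in all libraries. The 5 CpGs of the SFRP4 sequence were methylated in 4 of 252, 5 of 209 and 0 of 292 reads. The 12 capital CpGs of DKK1 were methylated in 1 of 283, 0 of 169 and 1 of 248 reads. Neighbouring CpGs share reads, and PCR can copy 1 molecule into several reads, so pooled shares and all intervals given here cover counting error only.

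Averaged over the 438 CpGs, methylation stood at 33.3% in the parental cells, 27.7% in KO #1 and 29.0% in KO #2. Both knockout lines were thus below the parental cells, with differences of -5.63 and -4.26 percentage points, beside -4.07 and -2.13 points over all CpGs compared, where the means were 42.7%, 38.7% and 40.6%. The median difference was 0 in both lines, and 198 of the 438 CpGs were under 20% in the parental cells. The antagonist windows held few fully methylated CpGs, with 12.3% over 80% in the parental cells against 33.6% of all CpGs. They held many at intermediate levels instead, 42.5% between 20% and 80% against 19.5% of all CpGs.

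Single CpGs were compared between each pair of libraries by a 2-sided Fisher's exact test of methylated and unmethylated reads, adjusted by Benjamini-Hochberg over all 2238764 CpGs, and called where the adjusted p was under 0.05 and the levels lay 25 points or more apart. With 1 parental library, such a test says that libraries differ, not conditions. An exact permutation test of 1 library against 2 cannot go below p = 0.333. In KO #1, 31 of the 438 CpGs (7.08%) were called lower than parental, beside 4.46% of all CpGs, and 4 (0.913%) were called higher, beside 0.599%. The lower calls lay at DKK3 (10), SFRP2 (7), WIF1 (5), SFRP4 (4), DKK2 (3) and SFRP1 (2), with 0 at SFRP5 and DKK1. A lower call needs a parental level of at least 25%, so a CpG near 0% could only be called higher. In the parental cells 22 of the 25 CpGs of SFRP5 and 55 of the 56 of DKK1 were under 20%. In KO #2, 5 CpGs (1.14%) were called lower, beside 0.713%, and 1 (0.228%) higher, beside 0.0831%. Between the knockout lines, KO #1 was called lower than KO #2 at 5 CpGs (1.14%), beside 1.07%, and higher at 4 (0.913%), beside 0.184%. Since both comparisons use the same parental library, a CpG called in both lines rests on 1 parental value. There were 4 such CpGs on the lower side (0.913%, beside 0.6% of all CpGs), 1 each at SFRP1, SFRP2, WIF1 and DKK2, and 0 on the higher side (beside 0.0581%). Whether the members' shares differ from the background was not tested. With every CpG thinned to the smallest of its 3 depths, 20 members (4.57%) were called lower in KO #1, beside 3.51% of all CpGs, and 1 (0.228%) in KO #2, beside 0.33%.

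**Figure D1:**
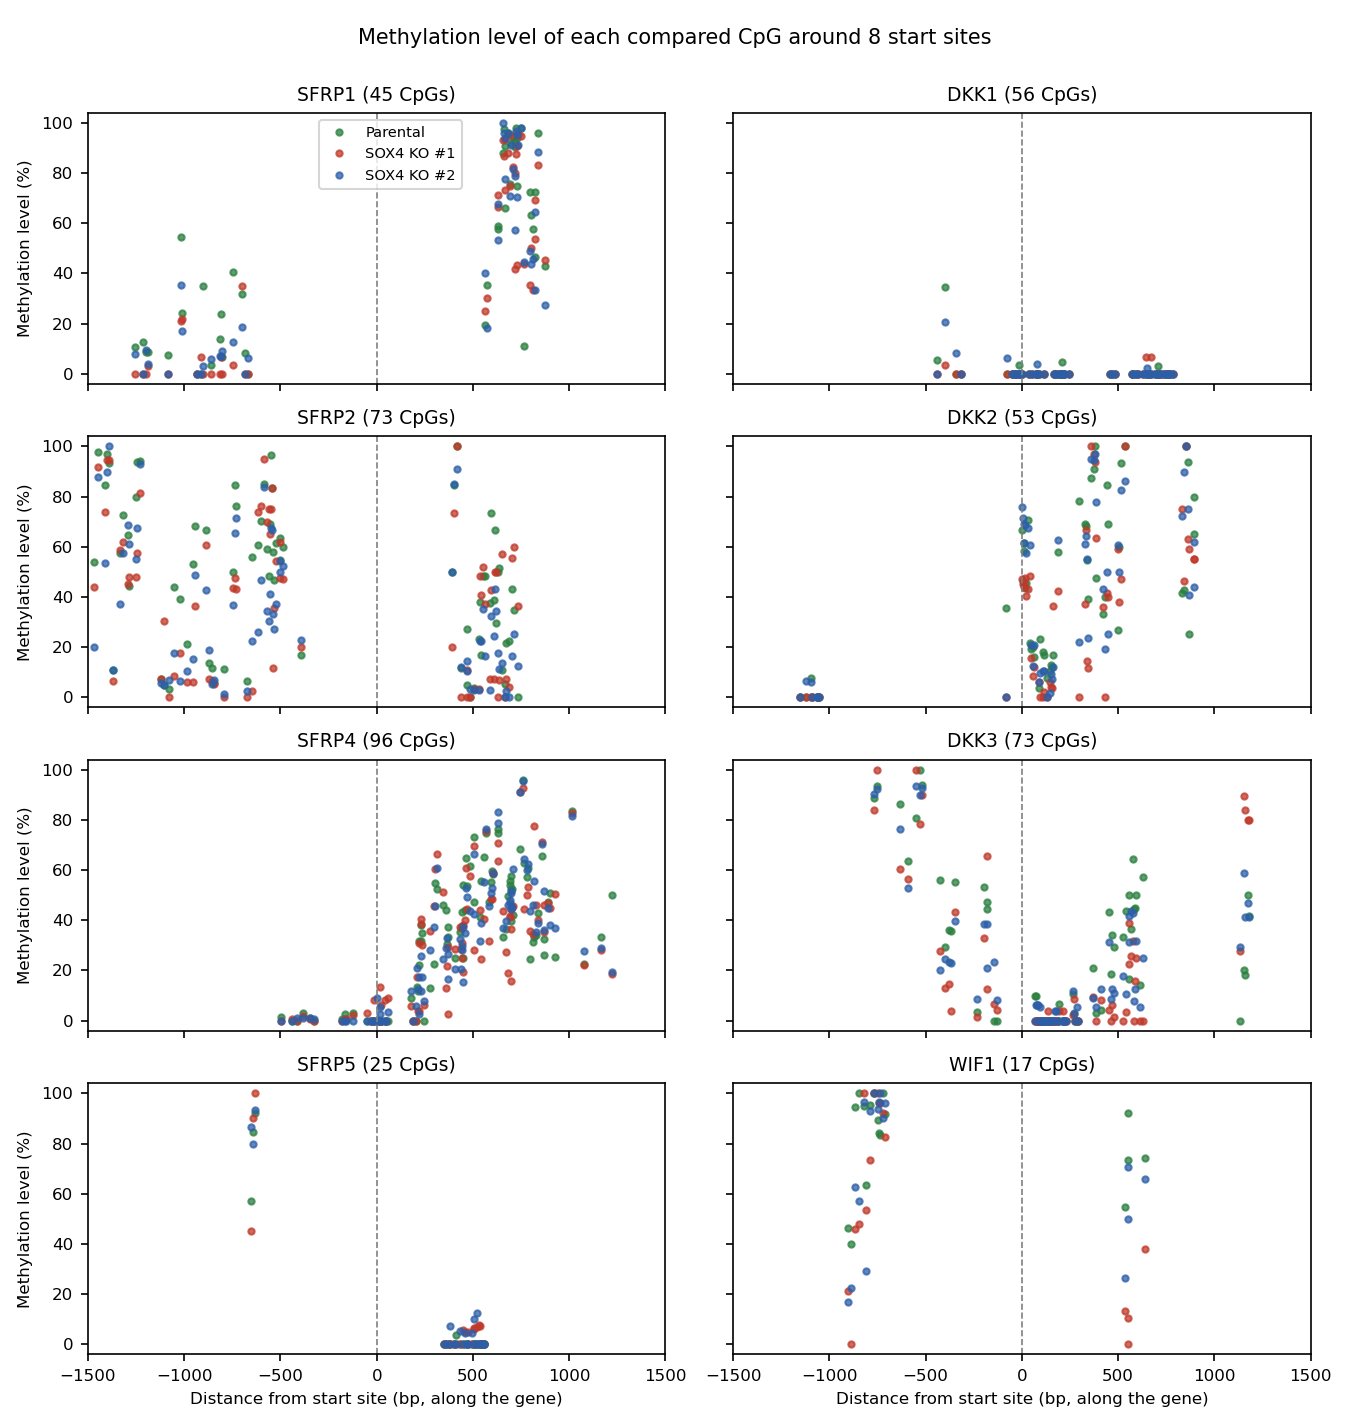
Methylation level (%) of each compared CpG against its distance from the start site (bp, along the gene), with 1 panel per gene and 1 point per CpG and library. DKK1 lay near 0% across its start, SFRP4 was low at the start and higher downstream, DKK3 was low at the start and higher on both flanks, and SFRP1, SFRP5 and WIF1 had no compared CpG close to the start.

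SFRP1, which binds Wnt ligands, had 45 compared CpGs of 122 read, and the nearest one lay 563 bp from the start site (chromosome 8, position 41166990, reverse strand). Its mean level was 50.4% in the parental cells, 42.8% in KO #1 and 44.7% in KO #2. The knockout lines lay close together (43.8% ± 1.38, SD, n = 2), and their mean was -6.61 points from parental, more than the 1.95 points between the lines. With a minimum of 5 or of 20 reads this difference was -11.5 or -10.5 points. The window fell into a low upstream part and a high downstream part. From -1256 to -671 bp (distances run along the gene, negative upstream), 18 CpGs averaged 16.1%, 5.39% and 7.93% in the parental cells, KO #1 and KO #2, and from 629 to 875 bp, 25 CpGs averaged 76.9%, 71.0% and 72.5%. These and the other stretches below were delimited after the levels were seen, so their means are descriptions. The CpG at 716 bp (position 41166274) was methylated in 48 of 53 parental reads (90.6%, 95% interval 79.3 to 96.9), 10 of 24 in KO #1 (41.7%, 22.1 to 63.4) and 35 of 61 in KO #2 (57.4%, 44.1 to 70.0). It fell in both lines (Fisher's exact test, adjusted p = 0.000543 in KO #1 and 0.0157 in KO #2), and the lines were not called apart (adjusted p = 1). The CpG just before it, at 710 bp, was at 94.2%, 82.6% and 81.7% and was not called. Another CpG went the other way. At 767 bp, 5 of 45 parental reads, 7 of 16 in KO #1 and 24 of 54 in KO #2 were methylated, and the rise passed the exact test in KO #2 (adjusted p = 0.0347) and not in KO #1 (adjusted p = 0.116). Upstream at -748 bp the counts were 19 of 47, 1 of 30 and 8 of 64, a fall in KO #1 (exact test, adjusted p = 0.00488). The window drew fewer of its library's reads in KO #1, 0.601 of the parental share, against 0.856 in KO #2, and the part of read depth in these values was not tested.

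The region around the SFRP1 start site itself was read too thinly for the minimum, at about 5 reads per CpG. Pooling the 55 CpGs within 500 bp of the start, a step added after seeing the data, gave 195 methylated of 274 reads in the parental cells (71.2%, 95% interval 65.4 to 76.5), 109 of 252 in KO #1 (43.3%, 37.1 to 49.6) and 154 of 250 in KO #2 (61.6%, 55.3 to 67.7). The KO #1 interval lay below the other two, and the intervals of KO #2 and the parental cells overlapped. This was the widest separation of libraries among the thinly read start sites, and no p-value is given because neighbouring CpGs share reads.

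SFRP2, another SFRP protein that can bind Wnt ligands, had 73 compared CpGs of 115 around position 154710228 of chromosome 4 (reverse strand). The mean level was 47.2% in the parental cells, 38.3% in KO #1 and 33.8% in KO #2, or 36.1% ± 3.21 (SD, n = 2) for the knockout lines. SFRP2 was the one gene of the 8 at which KO #2 lay below KO #1. Its knockout difference of -11.1 points was the second in size after that of WIF1 (with a minimum of 5 reads, SFRP1 at -11.5 points lay beyond SFRP2 at -9.22), and the lines lay 4.54 points apart. Over the 10 CpGs within 500 bp of the start, the difference was -4.77 points. Levels alternated along the window. The 13 CpGs from -1470 to -1230 bp averaged 72.7%, 62.0% and 61.7%, the next 13, from -1120 to -794 bp, averaged 26.9%, 14.7% and 14.7%, and both lines were below parental in each. From -646 to -392 bp, 16 CpGs averaged 61.9% in the parental cells, 55.9% in KO #1 and 43.5% in KO #2, and KO #2 was below parental at 15 of the 16. Downstream, 27 CpGs from 393 to 735 bp averaged 34.9%, 28.6% and 22.3%. KO #2 thus lay below KO #1 in the last 2 of these 4 stretches, while the lines had almost equal means in the first 2.

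At single SFRP2 CpGs, the one called in both lines lay at 636 bp (position 154709592). It was methylated in 18 of 35 parental reads (51.4%, 95% interval 34.0 to 68.6), 2 of 29 in KO #1 (6.90%, 0.846 to 22.8) and 4 of 36 in KO #2 (11.1%, 3.11 to 26.0), with adjusted p = 0.00367 and 0.0322 by Fisher's exact test. Next to it, at 630 bp, the counts were 17 of 34, 0 of 28 and 6 of 34, which fell in KO #1 (exact test, adjusted p = 0.000243). A few bases downstream of the shared fall, at 651 bp, the order turned, with 4 of 37 parental reads, 16 of 28 in KO #1 and 5 of 37 in KO #2. KO #1 was called above parental (exact test, adjusted p = 0.00306) and above KO #2 (adjusted p = 0.0274). All 4 member CpGs at which KO #1 was called above KO #2 were at SFRP2, the others at -1107, -617 and -559 bp. The lowest adjusted p of the gene was at -646 bp, where 19 of 34 parental reads, 1 of 44 in KO #1 and 8 of 36 in KO #2 were methylated (exact test, adjusted p = 4.26e-06 in KO #1 and 0.225 in KO #2). Within 500 bp of the start, the reads of 38 thinly read CpGs gave 66.4%, 63.6% and 63.6%, so the centre of the island, part of which is printed above, was largely methylated in all 3 libraries.

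SFRP4 had the best-read window, with 96 compared CpGs of 98 and the nearest of them 1 bp from the start (chromosome 7, position 37956525, reverse strand). Mean levels were 33.1%, 30.7% and 31.3% in the parental cells, KO #1 and KO #2. The knockout lines (31.0% ± 0.431, SD, n = 2) differed from parental by -2.04 points and from each other by 0.609 points. Levels were low at the start and higher further into the gene. From -497 to 58 bp, 23 CpGs were nearly free of methylation, with 23 of 2425 reads methylated in the parental cells, 17 of 1913 in KO #1 and 18 of 3119 in KO #2, and from 180 to 1220 bp 73 CpGs averaged 43.3%, 39.6% and 40.9%. The rise was uneven. The CpG at 187 bp was still at 0% in all 3 libraries, and the one at 229 bp stood at 38.1%, 38.7% and 11.9%. The CpG at 248 bp was back at 0%, 6.06% and 7.84%, while the one at 303 bp stood at 55.0%, 60.4% and 45.8%. RefSeq puts the start of SFRP4 106 bp further downstream, where no CpG was compared. All calls were on the methylated side. At 698 bp, 51 of 97 parental reads, 13 of 82 in KO #1 and 42 of 94 in KO #2 were methylated, which fell in KO #1 (exact test, adjusted p = 2.72e-05) and set KO #1 apart from KO #2 (adjusted p = 0.00562). The CpG immediately after it, at 700 bp, was at 57.7%, 44.6% and 51.6% and was not called. At 681 bp the same pattern held, with 51 of 103, 18 of 94 and 50 of 108 (exact test, adjusted p = 0.000535 for KO #1 against parental and 0.00668 against KO #2). At 816 bp the direction was reversed, with 17 of 51, 38 of 49 and 35 of 63, a rise in KO #1 (exact test, adjusted p = 0.000449). At 745 bp both lines passed the test but not the 25-point limit, with 50 of 73 parental reads, 61 of 67 in KO #1 and 84 of 92 in KO #2 (exact test, adjusted p = 0.0277 and 0.0292).

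SFRP5 had the lowest mean over compared CpGs of the SFRP genes, with 25 compared CpGs of 91 around position 99531756 of chromosome 10 (reverse strand). Its mean was 9.51% in the parental cells, 11.4% in KO #1 and 12.2% in KO #2. It was the one gene at which both lines lay above parental, by 2.26 points for their mean (11.8% ± 0.541, SD, n = 2), with 0 CpGs called. Weighted by reads, the difference was 9.61 points, a value that also depends on how the reads were spread over the window. The mean joins 2 different stretches. The 3 compared CpGs upstream, from -655 to -631 bp, averaged 78.0%, 78.5% and 86.7% (31 of 40, 68 of 88 and 39 of 45 reads). The 22 CpGs from 347 to 559 bp held 1 methylated read of 554 in the parental cells, 8 of 318 in KO #1 and 8 of 372 in KO #2. The downstream shares were thus 0.162%, 2.24% and 1.99% as means over CpGs. A difference of this size rests on a few reads. In the thinly read centre, 59 CpGs within 500 bp of the start gave 33 of 179 reads (18.4%), 45 of 168 (26.8%) and 57 of 323 (17.6%), with overlapping intervals. The knockout lines were thus not on one side of parental there. Upstream of the start the printed sequence of SFRP5 was above that of SFRP4, at 13.1%, 11.9% and 17.6% against 1.59%, 2.39% and 0%.

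WIF1, the Wnt inhibitory factor, had the highest mean over compared CpGs of the 8 genes and the widest differences of such means. These rested on 17 compared CpGs of 55, the nearest of them 536 bp from the start (chromosome 12, position 65515116, reverse strand). Mean levels were 81.0% in the parental cells, 57.1% in KO #1 and 68.7% in KO #2. The knockout lines (62.9% ± 8.18, SD, n = 2) were -18.1 points from parental and 11.6 points from each other. The differences were local. The 4 CpGs from -901 to -844 bp averaged 70.1%, 28.7% and 39.6%, while the 9 CpGs that follow, from -820 to -711 bp, averaged 89.2%, 88.2% and 88.4%. In that second stretch single CpGs went both ways and 0 were called, with the CpG at -810 bp at 63.6%, 53.6% and 29.0%. Downstream, 4 CpGs from 536 to 642 bp averaged 73.6%, 15.4% and 53.2%. The CpG at -844 bp (position 65515960), read on both strands, was methylated in 22 of 22 parental reads, 12 of 25 in KO #1 (48.0%, 95% interval 27.8 to 68.7) and 16 of 28 in KO #2 (57.1%, 37.2 to 75.5), and fell in both lines (exact test, adjusted p = 0.00151 and 0.0412). Its neighbour at -865 bp, with 17 of 18, 11 of 24 and 15 of 24, fell in KO #1 alone by the test (exact test, adjusted p = 0.0205 in KO #1 and 0.482 in KO #2). At 549 bp (position 65514567), 12 of 13 parental reads, 0 of 19 in KO #1 and 17 of 24 in KO #2 were methylated. This difference of -92.3 points was the widest of all 438 CpGs in KO #1 (exact test, adjusted p = 5.63e-06), and KO #1 was also below KO #2 there (adjusted p = 0.000304). The WIF1 window drew 1.84 times the parental share of reads in KO #1 and 1.32 times in KO #2, and whether copy number has a part in its levels was not tested. The 26 thinly read CpGs within 500 bp of the start gave 14 of 46 reads (30.4%), 50 of 137 (36.5%) and 21 of 50 (42.0%), with overlapping intervals. These shares lay below the gene's mean over compared CpGs in each library. In the parental cells the share also lay below those of SFRP1 (71.2%) and SFRP2 (66.4%) within 500 bp. A difference between libraries was not detectable at this depth.

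**Figure D2:**
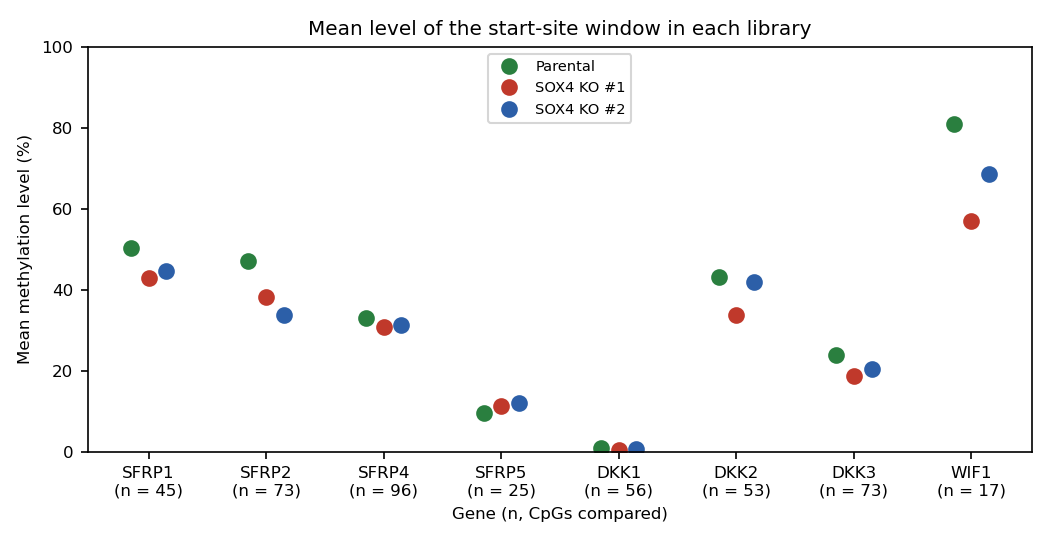
Mean methylation level (%) over the compared CpGs of each gene, with 1 point per library and n the number of CpGs. Parental points lie above both knockout lines at SFRP1, SFRP2, SFRP4, DKK1, DKK2, DKK3 and WIF1 and below them at SFRP5, and WIF1 spans 81.0% to 57.1%.

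DKK1, the best-known LRP5 and LRP6 antagonist, was nearly unmethylated in all 3 libraries. Its 56 compared CpGs of 75 (chromosome 10, start at position 54074041, forward strand) averaged 0.907% in the parental cells, 0.302% in KO #1 and 0.736% in KO #2, with 0 calls. From -78 to 786 bp, 52 CpGs held 4 methylated reads of 1633 in the parental cells, 4 of 1127 in KO #1 and 3 of 1688 in KO #2. The CpG at the start itself was at 0 of 30, 0 of 18 and 0 of 29 reads, which allows a level of up to 11.6%, 18.5% and 11.9% (exact 95% interval). One CpG stood out upstream. At -398 bp, 9 of 26 parental reads, 1 of 28 in KO #1 and 6 of 29 in KO #2 were methylated, without passing the exact test (adjusted p = 0.0665 and 1).

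DKK2, the close relative of DKK1 with the same co-receptors, was in contrast partly methylated across its start. Its 53 compared CpGs of 74 (chromosome 4, start at position 107957453, reverse strand) averaged 43.1% in the parental cells, 33.9% in KO #1 and 41.8% in KO #2. The knockout mean was 37.9% ± 5.61 (SD, n = 2), and its difference from parental, -5.19 points, was smaller than the 7.94 points between the lines. KO #1 differed from parental by -9.16 points and KO #2 by -1.22 points. Far upstream, 7 CpGs from -1151 to -1052 bp were nearly unmethylated, at 1 of 88, 0 of 99 and 2 of 116 reads. The 10 CpGs from -85 to 49 bp averaged 46.9%, 37.6% and 55.3%, with KO #2 above parental at 8 of them and KO #1 below at 8. A dip followed, from 58 to 158 bp, at 14.0%, 4.20% and 8.73%, and 26 CpGs from 164 to 896 bp averaged 64.0%, 53.0% and 60.2%. Some CpGs lay well below parental in both lines without being called, such as that at -85 bp (35.7%, 0% and 0%). The one called in both was at 295 bp (position 107957158). It was methylated in 25 of 32 parental reads (78.1%, 95% interval 60.0 to 90.7), 0 of 36 in KO #1 (up to 9.74%) and 13 of 59 in KO #2 (22.0%, 12.3 to 34.7). It fell in both lines and had the lowest adjusted p of the 438 CpGs in each (exact test, 4.06e-10 in KO #1 and 0.000241 in KO #2). The next compared CpG, at 329 bp, was at 69.2%, 37.1% and 61.0%, and was not called. At 340 bp, 12 of 22 parental reads, 5 of 35 in KO #1 and 21 of 38 in KO #2 were methylated, so that KO #1 fell below parental (exact test, adjusted p = 0.0411) and lay below KO #2 (adjusted p = 0.0338). The window drew 1.68 times the parental share of reads in KO #1 and 1.5 times in KO #2, whose part in these levels was not tested.

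DKK3, the divergent Dickkopf protein, had a low centre with methylated flanks, and all its calls lay outside the centre. Its 73 compared CpGs of 114 (chromosome 11, start at position 12030917, reverse strand) averaged 23.9% in the parental cells, 18.8% in KO #1 and 20.5% in KO #2, with a knockout mean of 19.6% ± 1.20 (SD, n = 2), -4.31 points from parental (-1.81 points when weighted by reads). From -143 to 410 bp, 37 CpGs averaged 1.84%, 1.36% and 3.16%, with 0 calls. Their parental levels reached 21.1% at most, so a lower call was not possible there. On either side of this centre the levels were lower in both lines. The 9 CpGs from -426 to -181 bp averaged 40.1%, 23.8% and 26.4%, and the 15 CpGs from 452 to 627 bp averaged 38.7%, 11.7% and 22.3%. Of these 15, KO #1 was below parental at 14 and KO #2 at 13, and 7 were called lower in KO #1. Their parental levels ran from 14.3% to 64.3%. Of all CpGs compared with a parental level between 20% and 80%, 13.4% were called lower in KO #1. The stretch of 15 was delimited after its levels were seen, so its count was not tested against that share. At 452 bp (position 12030465), 20 of 46 parental reads, 3 of 74 in KO #1 and 15 of 48 in KO #2 were methylated, a fall in KO #1 (exact test, adjusted p = 1.23e-05) that also lay below KO #2 (adjusted p = 0.00677). At 585 bp the counts were 8 of 18, 0 of 36 and 2 of 25 (exact test, adjusted p = 0.00156 in KO #1 and 0.276 in KO #2). Further into the gene the order of the means was the opposite. The 5 CpGs from 1134 to 1178 bp averaged 26.0% in the parental cells, 72.3% in KO #1 and 43.5% in KO #2, on 10 to 20 reads each. KO #1 was above parental at all 5, while KO #2 was above at 3 and below at 2. At 1153 bp, 2 of 10 parental reads, 17 of 19 in KO #1 and 10 of 17 in KO #2 were methylated, a rise in KO #1 (exact test, adjusted p = 0.00977). DKK3 lies on chromosome 11, which drew 1.31 times the parental share of reads in KO #1 and 1.14 times in KO #2, and the window itself drew 1.57 and 1.03 times. The part of dosage in the DKK3 values was not tested.

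**Figure D3:**
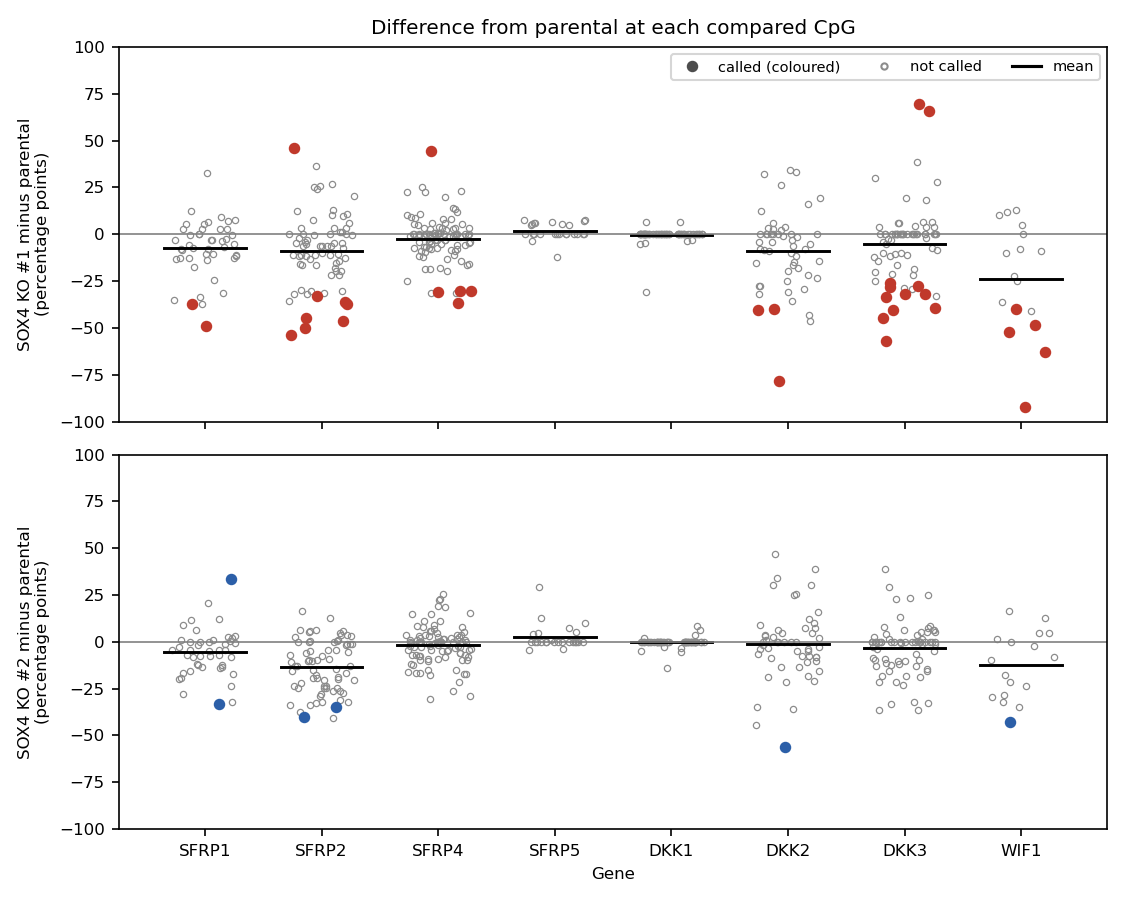
Difference from parental (percentage points) at each compared CpG of each gene, KO #1 in the upper panel and KO #2 in the lower, with called CpGs filled, the others open, and the mean of each gene as a bar. In KO #1 there are 31 lower calls (7.08%) and 4 higher ones (0.913%), beside 4.46% and 0.599% of all CpGs. In KO #2 there are 5 (1.14%) and 1 (0.228%), beside 0.713% and 0.0831%.

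The difference varied with the parental level and was widest at intermediate levels in both lines. At the 198 member CpGs under 20% in the parental cells, the mean differences were 0.785 points in KO #1 and 1.17 points in KO #2, beside 0.0455 and 0.289 points over all CpGs of that band. At the 186 CpGs between 20% and 80%, they were -11.1 and -9.38 points, beside -11.1 and -5.39. At the 54 CpGs over 80%, they were -10.3 and -6.57 points, beside -5.76 and -3.62. In KO #1 the partly methylated CpGs of the antagonist genes thus differed by as much as other partly methylated CpGs, and 24 of 186 (12.9%) were called lower beside 13.4% of all. Of the 54 highly methylated CpGs, 7 (13.0%) were called lower in KO #1 beside 5.48% of all, and 3 of the 7 lay at WIF1 and 2 at SFRP2. A band set by the parental value draws in CpGs whose parental value is high or low by counting error, for members and all CpGs alike.

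**Figure D4:**
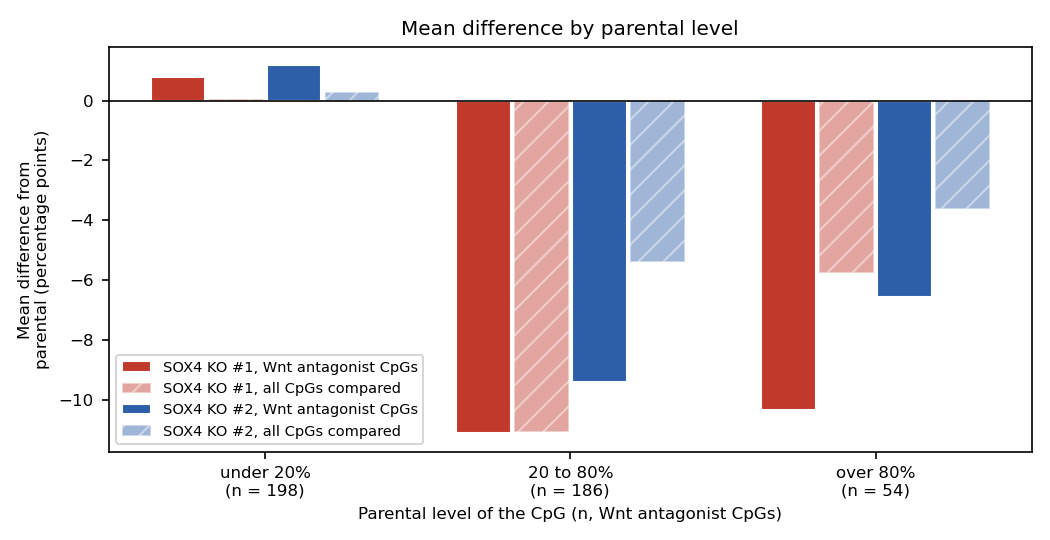
Mean difference from parental (percentage points) of the Wnt antagonist CpGs (solid) and of all CpGs compared (hatched), by parental level of the CpG and by knockout line. The bars for KO #1 are equal between 20% and 80% (-11.1 points each), and the solid bar reaches further over 80% (-10.3 against -5.76 points).

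The 8 windows were also set beside 47812 tiles of 3 kb with at least 10 compared CpGs. Among the 17602 tiles with a parental mean of 20% to 80%, the middle of the distribution (quartiles) ran from -13.1 to -2.24 points in KO #1 and from -7.59 to -0.645 points in KO #2. The KO #1 differences of SFRP1 (-7.58), SFRP2 (-8.83), SFRP4 (-2.35), DKK2 (-9.16) and DKK3 (-5.15) lay within those quartiles. In KO #2, SFRP1 (-5.64), SFRP4 (-1.74), DKK2 (-1.22) and DKK3 (-3.46) did as well, while SFRP2 (-13.4) lay below the lower quartile and above the 5th percentile (-14.1). WIF1 was beyond the 5th percentile of tiles over 80% in both lines, with -23.9 points against -17.3 and -12.4 points against -9.72. Its parental mean lies just over the 80% limit, and among tiles of 20% to 80%, whose 5th percentiles were -22.9 and -14.1 points, KO #1 would be beyond and KO #2 would not. SFRP5 lay above the 95th percentile of tiles under 20% in KO #2 (2.65 against 2.28 points) and below it in KO #1 (1.88 against 2.99 points). DKK1 lay within the quartiles of tiles under 20% in KO #1 (-0.605 points against -1.59 to 0.273) and in KO #2 (-0.172 against -0.947 to 0.292).

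Where KO #1 moved by at least 25 points from parental, KO #2 mostly lay between them. This held at 61 of 79 member CpGs (77.2%), beside 84.8% of such CpGs overall. Part of that share is fixed by the choice, since an extreme value of KO #1 leaves most values of KO #2 on its inner side. The DKK2 CpG at 295 bp, the WIF1 CpG at -844 bp and the SFRP2 CpG at 651 bp are of this kind.

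Close to the start sites, pooled levels of CpGs under the read minimum are given for the 6 genes with at least 10 such CpGs. SFRP1, SFRP2, SFRP5 and WIF1 are described above. At DKK1, 13 such CpGs stood at 5.53%, 2.80% and 5.47%, and at DKK3, 11 such CpGs stood at 3.45%, 1.83% and 5.49%. The thinly read CpGs of both DKK genes were thus low in all libraries, like their well-read neighbours.

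**Figure D5:**
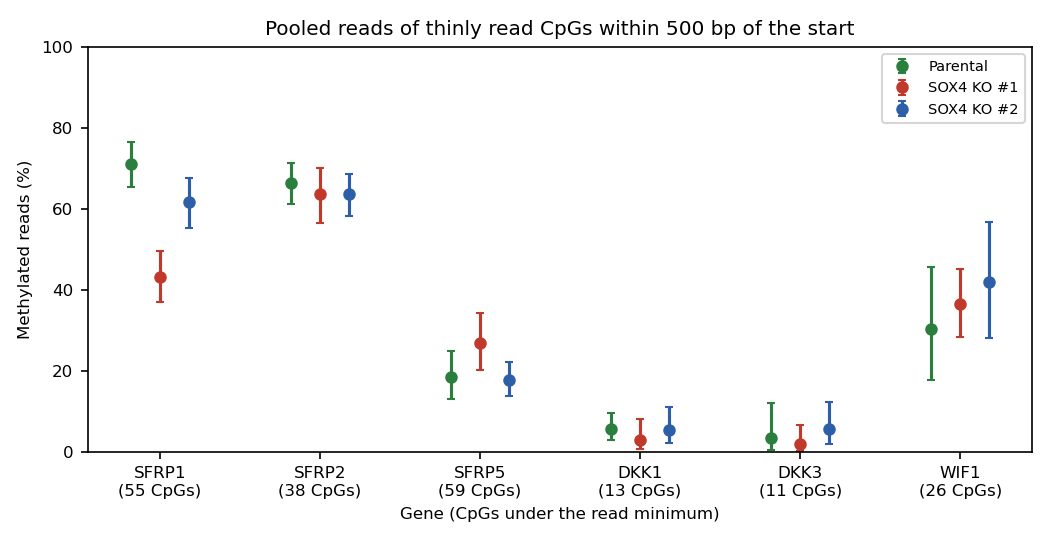
Share of methylated reads (%) pooled over CpGs under the read minimum within 500 bp of the start site, with exact 95% intervals from the read counts, for the 6 genes with at least 10 such CpGs. SFRP1 separates KO #1 (43.3%) from the parental cells (71.2%), and the intervals overlap between libraries at SFRP2, SFRP5, DKK1, DKK3 and WIF1.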

How the data were processed

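The labels give TruSeq Methyl Capture EPIC bisulfite libraries of genomic DNA, 1 per cell line. The deposited files hold, for each cytosine of a CpG, read counts (total, in CpG context, methylated) that the authors made without normalization, and the methylated fraction the authors derived from them. The aligner and caller are not given in the sources used here. The submitters' processing notes name GRCh37 (hg19). Counts of both strands were summed per CpG, and 10 reads were required in all libraries. Tests used Fisher's exact test (Python 3.11.15, scipy 1.17.1, pandas 2.3.3, numpy 2.4.6) and were checked on simulated data. Gene values are unweighted means over CpGs, compared with the gap between the knockout lines.

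Start sites came with the gene set, whose members and lists were chosen with earlier results of these data known. Per gene, the CpG nearest the start, those with the largest shared fall and rise, and those called in both lines were to be named, and other named CpGs were chosen after their values were seen. The strands of SFRP1, DKK2 and DKK3 are from general knowledge. No promoter entry was found for these 3 genes, and that of WIF1 could not be placed securely. Other Wnt pathway genes and exon positions were not analysed here. Alternatives covered the read minimum, window, weighting, strand, thresholds, depth thinning and leaving out a line.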

Additional observations from a re-analysis of the deposited data

How the results depend on the processing

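Recomputing 21 results gave 111 alternative values, of which 73 stayed within the replicate spread (for counts, 1.5 times) and 38 moved, and all 38 gene differences recomputed with both lines kept their sign. The 73 include values that could not move. With 2 knockout lines, leaving out one shifts a gene difference by less than the spread whatever the data. Using the deeper strand alone left the values of SFRP1, SFRP5, DKK1 and DKK2 unchanged. The cause of the moves was not tested. SFRP1 gave -11.5 points with a minimum of 5 reads, -10.5 with 20 and -11.3 weighted by reads. SFRP5 gave 0.755 with 5 reads, 1.24 within 500 bp and 9.61 weighted by reads, the last depending on how reads were spread over its 2 stretches. SFRP2 gave -4.77 and DKK1 -0.782 within 500 bp, SFRP4 -1.10 weighted by reads, and DKK3 -5.99 with 20 reads and -1.81 weighted by reads. SFRP1 and WIF1 had no compared CpG within 500 bp and gave no value. Lower calls in KO #1 (31) became 7 at a 50-point limit, 20 at an adjusted p under 0.01 and 20 after thinning, and higher calls (4) became 2 with 20 reads and 2 at 50 points. Lower calls in KO #2 (5) became 1 under each of 50 points, p under 0.01 and thinning, and the higher call (1) became 2 at 10 points and 0 at 20 reads, 50 points, p under 0.01 and thinning. KO #1 below KO #2 (5) became 1 at 50 points, and KO #1 above KO #2 (4) became 0 at 50 points, 0 at p under 0.01 and 2 after thinning. Lower calls in both lines (4) became 1 at 50 points, p under 0.01 and thinning, and 5 to 31 without one line. Higher calls in both (0) became 1 at 10 points and 1 to 4 without one line. Pooled reads of CpGs under the minimum, an alternative chosen after seeing the data, gave within 500 bp -10.3 points at SFRP4 (-2.27 over compared CpGs), 3.78 at SFRP5 (1.24) and 0.216 at DKK3 (-4.15). The SFRP4 value rests on 2 CpGs, methylated in 3 of 21 parental reads, 0 of 10 in KO #1 and 3 of 38 in KO #2.

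No paired analysis was possible because only 1 parental library was compared. Depth limits single CpGs to intervals often wider than 25 points.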
